A study of Mus musculus with 8 samples.

Results

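Cxcr3, Cxcr4 and Cxcr5 are 3 receptors for CXC chemokines, and they were read here as 3 rows among the 31053 genes of 4 single-cell expression matrices of mouse CD8 T cells. All 3 were present in every matrix, and their levels were followed by library, phenotype and clone size. EomesTG liver and EomesTG spleen held sorted CD8 T cells from animals carrying the Eomes transgene on both alleles (EomesTg/Tg), and WT liver and WT spleen held the same cells of wild-type mice. Both strains were on the C57BL/6 background. The sorted material of each strain was a pool of 3 mice, and each genotype and organ therefore gave 1 droplet library of RNA and 1 of T cell receptors (TCR), made with the 10x Genomics 5′ v1 kit, 8 libraries in all. No source used here names the transgene's promoter or the age and sex of the mice, and Eomes counts may come from the transgene or the endogenous gene. The series set out to see what more Eomes, a T-box factor known from memory and cytotoxic T cells, does to gene expression and clonality of CD8 T cells.

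Chemokine receptors are G protein-coupled receptors that steer cells along gradients of secreted chemokines. Cxcr3 binds the interferon-induced ligands Cxcl9, Cxcl10 and Cxcl11 and leads effector and memory T cells into inflamed tissue, the liver among them. Its gene is a known target of T-bet (Tbx21), the T-box factor closest to Eomes in T cells. Cxcr4 binds Cxcl12 and holds T cells in bone marrow and other niches rich in that ligand. Cxcr5 binds Cxcl13 and leads cells into B cell follicles. Among CD8 T cells it is known from the progenitor state of exhausted cells, which keeps Tcf7, and it is mostly lost at the terminal stage.

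The 3 genes lie on the reverse strand of GRCm38, in the GENCODE M21 annotation. Cxcr3 (ENSMUSG00000050232) is on chromosome X, 101731535 to 101734269, Cxcr4 (ENSMUSG00000045382) is on chromosome 1, 128588199 to 128592293, and Cxcr5 (ENSMUSG00000047880) is on chromosome 9, 44511787 to 44561877. Only Cxcr5 overlaps another gene, Bcl9l on the opposite strand. Since Eomes and T-bet both bind T-box sites, the promoters are shown for Cxcr3 and Cxcr4, each from 250 bases before to 50 bases after the RefSeq start on GRCm38.p6, written 5′ to 3′ on the strand of the gene. The Cxcr3 promoter is chrX:101734098-101734397 and the Cxcr4 promoter chr1:128592250-128592549, both on the minus strand. The Cxcr5 promoter is not shown. Capitals mark TCACAC, the core of the T-box site, which was searched on both strands.
Cxcr3: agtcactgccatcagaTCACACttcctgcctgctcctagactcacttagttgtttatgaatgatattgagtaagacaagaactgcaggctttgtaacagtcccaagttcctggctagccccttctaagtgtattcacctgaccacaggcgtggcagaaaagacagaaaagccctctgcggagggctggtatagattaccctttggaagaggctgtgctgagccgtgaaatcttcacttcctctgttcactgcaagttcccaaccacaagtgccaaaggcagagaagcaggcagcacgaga
Cxcr4: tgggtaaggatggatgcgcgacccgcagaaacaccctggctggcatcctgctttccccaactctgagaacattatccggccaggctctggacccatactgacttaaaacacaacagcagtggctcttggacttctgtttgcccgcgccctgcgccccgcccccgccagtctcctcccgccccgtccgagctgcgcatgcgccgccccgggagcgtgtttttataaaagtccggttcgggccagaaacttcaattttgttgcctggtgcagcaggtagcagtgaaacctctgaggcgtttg
The Cxcr3 window held 1 match, on the strand of the gene and 234 bases before the start, and the Cxcr4 window held 0. The same core occurred in 4760 of 32851 RefSeq windows of 300 bases, 14.5%. The longer half-site TCACACCT, which contains the core, occurred in 1.28% of the windows and in neither of the 2 shown. A match is a description of the letters and says nothing of binding.

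After filtering, 4517 T cells of EomesTG liver, 3127 of WT liver, 5726 of EomesTG spleen and 5333 of WT spleen were analysed. Their sums were 20525760, 18940149, 28282240 and 28754966 unique molecular identifiers (UMIs, each standing for 1 captured RNA molecule), with medians per cell of 3918, 5461, 4751.5 and 5025. The 2 liver libraries thus differed in depth per cell. Pairs of libraries shared 23 to 57 cell barcodes, at most 1.07% of the smaller library. The label of CD8 T cells was met: the 6 listed CD8 T cell markers summed to between 4750 and 7191 CPM (UMIs scaled to a total of 1000000), and Cd4 had 0 to 2 UMIs in any library. The transgene label was met as well, with Eomes at 182 CPM in EomesTG liver against 84.7 in WT liver, and at 134 CPM in EomesTG spleen against 86.9 in WT spleen. The 15 listed immediate early and stress genes, which respond to tissue handling, summed to 12495 CPM in EomesTG liver, 10294 in WT liver, 3021 in EomesTG spleen and 1733 in WT spleen. Their part in the results below was not tested, beyond the values given beside them.

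The level of a receptor is given as CPM over the summed cells of a library or group, with the exact 95% Poisson interval in parentheses. Cxcr3 stood at 122 (117 to 126) CPM in EomesTG liver, 157 (151 to 163) in WT liver, 135 (131 to 139) in EomesTG spleen and 98.4 (94.8 to 102) in WT spleen. These rest on 2496, 2971, 3821 and 2830 UMIs. WT liver was highest and WT spleen lowest, with both EomesTG libraries between them, and none of the 4 intervals overlapped. Such intervals cover counting error only: with 1 library per genotype and organ there is no replicate spread, no test of genotype or organ can be made, and a difference may also be one between these pools of mice or these libraries. In such sums fewer expressing cells and less RNA per cell cannot be told apart.

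Cxcr4 stood at 17.9 (16.1 to 19.9) CPM in EomesTG liver, 27.8 (25.5 to 30.3) in WT liver, 12.5 (11.2 to 13.9) in EomesTG spleen and 9.18 (8.11 to 10.4) in WT spleen, on 368, 527, 354 and 264 UMIs. Both livers were above both spleens, and within the organs the genotypes stood in opposite order. Cxcr5 stood at 7.80 (6.63 to 9.10) CPM in EomesTG liver, 8.45 (7.19 to 9.86) in WT liver, 22.9 (21.1 to 24.7) in EomesTG spleen and 14.2 (12.8 to 15.6) in WT spleen, on 160, 160, 647 and 408 UMIs. Its intervals overlapped between the livers, which were below both spleens.

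**Figure D1:**
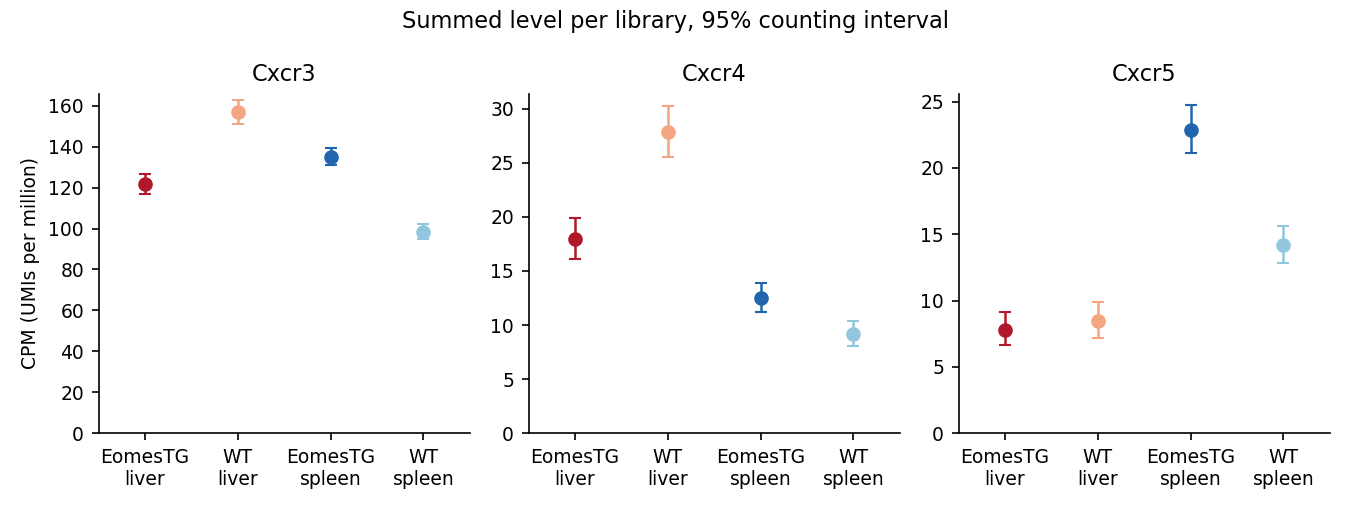
Level of Cxcr3, Cxcr4 and Cxcr5 in each of the 4 RNA libraries. The y axes give CPM of UMIs summed over the T cells of a library and start at 0, points are libraries and bars are exact 95% Poisson intervals. Cxcr3 was highest in WT liver at 157 CPM, Cxcr4 was higher in both livers than in both spleens, and Cxcr5 was highest in EomesTG spleen at 22.9 CPM.

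Because the libraries differ in depth per cell, the share of cells with a UMI was also taken after thinning each cell to 2000 UMIs, which left out 586, 194, 373 and 254 shallower cells of EomesTG liver, WT liver, EomesTG spleen and WT spleen. A Cxcr3 UMI was then found in 21.1%, 24.8%, 22.5% and 17.0% of cells in that order, against 35.4%, 47.1%, 43.8% and 33.9% of all cells unthinned. A Cxcr4 UMI was found in 2.98%, 5.52%, 2.78% and 1.71% of thinned cells (6.00%, 13.0%, 5.80% and 4.74% unthinned), and a Cxcr5 UMI in 1.30%, 1.74%, 4.20% and 2.72% (2.97%, 4.45%, 10.0% and 6.94% unthinned). The shares kept the order of the CPM for each receptor, though some intervals overlapped. For Cxcr4 those of EomesTG liver (2.47% to 3.56%) and EomesTG spleen (2.36% to 3.26%) did. For Cxcr3 the interval of EomesTG spleen (21.4% to 23.6%) overlapped those of EomesTG liver (19.8% to 22.4%) and WT liver (23.2% to 26.4%). For Cxcr5 those of EomesTG liver (0.967% to 1.70%) and WT liver (1.30% to 2.28%) overlapped. Free RNA in droplets can give UMIs to cells that do not express a gene, so low shares were set beside cell groups with few UMIs of the same gene, chosen after their values were seen. Cxcr5 was found in 0 of 293 thinned WT liver cells of cluster 16, which bore NK receptors and had a median of 3316 UMIs, which allows a share of up to 1.02%. For Cxcr3 no cluster lacked the gene, and the lowest thinned share of a cluster with at least 50 cells in a library was 5.59%, in the WT spleen cells of cluster 14, with a median of 5711.5 UMIs.

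Within the spleen all 3 receptors were higher in EomesTG than in WT cells. A difference was called when it reached 1.5-fold with the exact conditional binomial interval of the ratio on the same side of equality. Only genes with at least 50 UMIs over both sides were counted. The log2 ratio of EomesTG over WT spleen was 0.69 (95% interval 0.51 to 0.87) for Cxcr5, a 1.61-fold higher level that was called. Of the 10774 genes counted in that comparison, 2.68% were called higher and 4.93% lower. For Cxcr3 the ratio was 0.46 (0.39 to 0.53) and for Cxcr4 0.45 (0.21 to 0.68), both above equality by their intervals and under 1.5-fold. After thinning, the Cxcr4 ratio was 0.71 and past 1.5-fold.

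In the liver the genotypes stood the other way for 2 of the 3 receptors. Cxcr4 was lower in EomesTG liver, with a log2 ratio of −0.63 (−0.83 to −0.44) that was called, where 13.7% of 10800 genes were called higher and 6.7% lower and the median gene stood at 0.12. The Cxcr3 ratio was −0.37 (−0.44 to −0.29), under 1.5-fold. For Cxcr5 it was −0.12 (−0.44 to 0.21), which did not leave equality. Counting each clone once, instead of each cell, gave 0.14 for Cxcr3, −0.16 for Cxcr4 and 0.67 for Cxcr5 in the liver, so the directions of Cxcr3 and Cxcr5 turned, the Cxcr5 ratio passed 1.5-fold and the Cxcr4 ratio no longer did. Without cells of 2 TRB chains the Cxcr4 ratio was −0.58, just under 1.5-fold.

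Between the organs of WT mice, Cxcr3 and Cxcr4 were higher and Cxcr5 lower in liver than in spleen, and all 3 differences were called. The log2 ratio of liver over spleen was 0.67 (0.60 to 0.75) for Cxcr3, 1.60 (1.38 to 1.82) for Cxcr4, a 3.03-fold higher level, and −0.75 (−1.02 to −0.48) for Cxcr5. In this comparison 11.4% of genes were called higher and 3.38% lower. In EomesTG mice the ratios were −0.15 (−0.23 to −0.08) for Cxcr3, 0.52 (0.30 to 0.73) for Cxcr4 and −1.55 (−1.81 to −1.30) for Cxcr5. There only Cxcr5 was called, where 23.6% of genes were called higher and 9.69% lower and the median gene stood at 0.19. After thinning, the Cxcr3 ratio in EomesTG mice was −0.096 (−0.214 to 0.022), which did not leave equality. The comparisons of genotype and of organ share libraries and are not independent of each other.

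Cxcr5 counts need 1 reservation, since no source used here gives the strand setting of the counting, and Bcl9l overlaps the gene. Bcl9l, a cofactor of Wnt signalling, stood at 17.0 CPM in EomesTG liver, 33.9 in WT liver, 43.6 in EomesTG spleen and 45.7 in WT spleen. Its log2 ratio of EomesTG over WT was −0.07 in spleen, where Cxcr5 was called higher, and −0.998 in liver. Liver over spleen it was −1.36 in EomesTG and −0.43 in WT, the same side as Cxcr5. Cxcr5 is also a gene of B cells, whose 6 listed markers summed to 94.1 CPM in EomesTG liver, 191 in WT liver, 244 in EomesTG spleen and 264 in WT spleen. Within that list Ms4a1 had 4 UMIs in EomesTG liver and 0 elsewhere, and Cd79a had 3, 2, 7 and 7 UMIs. Cd79b of the same list stood at 5.16, 24.9, 14.9 and 28.6 CPM in the same order, lower in EomesTG than in WT in both organs. The part of B cell RNA in the Cxcr5 levels was not tested. Cxcr3 is X-linked, and Xist, the RNA of the inactive X chromosome, stood at 330 to 398 CPM in all 4 libraries. The Y-linked genes Ddx3y, Eif2s3y, Kdm5d and Uty each had at most 2 UMIs in any library.

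The T cells fell into 18 clusters, made without the 3 receptors and without Eomes among the variable genes. Cxcr3 was highest in cluster 2, an unnamed cluster led by Asb2, Socs2 and Cd40lg that came mainly from both livers, at 378 (353 to 405) CPM. Next were cluster 0, an unnamed cluster led by Actg2 and Nrn1, at 240.1 (227 to 254) CPM, and cluster 16, the NK receptor-bearing-like cluster of the liver, at 213 (192 to 236) CPM. It was lowest in the exhausted-like cluster 7, at 28.5 (20.8 to 38.1) CPM, and in cluster 14, led by Lad1 and the TCR-induced factors Egr3 and Egr2, at 45.5 (38.5 to 53.3) CPM. The other named clusters lay between 66.3 and 178 CPM.

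Cxcr4 was highest in the immediate early-like cluster 8, led by Klf4 and Fos, at 37.5 (34.1 to 41.1) CPM, and in the effector-like cluster 13, led by S1pr5 and Cx3cr1, at 31.9 (25.9 to 38.8) CPM. Both came mostly from the livers, with 593 EomesTG and 1326 WT liver cells in cluster 8. In liver cells of cluster 8 the listed immediate early and stress genes summed to 13300 CPM in EomesTG and 12845 CPM in WT. In liver cells of cluster 2 that list summed to 20971 CPM in EomesTG and 15425 CPM in WT, with Cxcr4 at 12.9 and 14.9 CPM. In EomesTG liver cells of clusters 5, 6 and 16 the list summed to 14815, 14028 and 19034.5 CPM, with Cxcr4 at 8.31, 14.5 and 11.8 CPM. In WT liver cells of cluster 16 the values were 14056 and 10.3 CPM. The remaining liver groups of at least 50 cells had lower sums than cluster 8. Among them was cluster 13, at 12638 CPM in EomesTG and 10352 CPM in WT, with Cxcr4 at 46.3 and 31.7 CPM. Leaving cluster 8 out lowered the WT ratio of liver over spleen for Cxcr4 to 1.17, still past 1.5-fold, and that of EomesTG to 0.11. Without it the ratio of EomesTG over WT liver was −0.63 for Cxcr3, past 1.5-fold. Cluster 2, also high in the listed immediate early markers (median log2 difference 1.69) but unnamed, stayed in.

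In the spleen Cxcr5 had 0 UMIs in the 60 WT cells of the effector-like cluster 13, whose interval reached 18.4 CPM, and among the other clusters with at least 50 cells it ranged from 10.5 CPM in WT cells of the cycling-like cluster 15 to 42.0 CPM in EomesTG cells of the naive-like cluster 3. Over all libraries it stood at 27.2 (21.9 to 33.3) CPM in the naive-like cluster 3 and 23.3 (18.4 to 29.1) CPM in cluster 14. It was at or near 0 in 4 clusters made up mostly of liver cells: 0 UMIs in cluster 16 among 445 cells, 0 UMIs in the exhausted-like cluster 7 among 236 cells, 3 UMIs in cluster 2 and 1.43 (0.712 to 2.55) CPM in the exhausted-like cluster 5. Clusters 2 and 16 were thus high for Cxcr3 and near 0 for Cxcr5, whereas cluster 14 was low for Cxcr3 and high for Cxcr5. Not every cluster stood so. Cluster 0 was high for Cxcr3 with Cxcr5 at 16.5 (13.1 to 20.5) CPM, and cluster 7 was low for Cxcr3 with 0 Cxcr5 UMIs.

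Naive-like cells, which carry Ccr7, Lef1 and Tcf7, differed between the genotypes in Cxcr3. In the spleen Cxcr3 stood at 126 (120 to 131) CPM in 3434 EomesTG and 57.1 (52.8 to 61.6) CPM in 2275 WT naive-like cells. The log2 ratio was 1.14 (1.01 to 1.27) and was called, where 3.07% of genes were called higher and 3.45% lower. Different clusters held most of these cells, 2661 of the EomesTG cells being in cluster 11 and 1667 of the WT cells in cluster 4. Cluster 11 was led by Ly6c1 and the interferon-induced GTPase genes Iigp1 and Tgtp1. Within each of the 3 naive-like clusters the EomesTG level was higher too, at 131 against 78.5 CPM in cluster 11, 112 against 56.8 CPM in cluster 4 and 104 against 44.7 CPM in cluster 3. Each was called, where 3.52%, 2.53% and 2.84% of genes were called higher.

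In the liver 144 EomesTG and 94 WT cells were naive-like, and Cxcr3 stood at 129 (106 to 156) CPM in EomesTG and 57.0 (39.0 to 80.5) CPM in WT cells. The ratio of 1.18 (0.60 to 1.80) was called, where 2.17% of genes were called higher and 8.05% lower and the median gene stood at −0.14. Of these cells 124 in EomesTG were in cluster 11 and 50 in WT in cluster 4. The size depended on how naive cells were defined. In the spleen the ratio was 1.44 at a Leiden resolution of 0.6, 1.02 at 1.5 and 1.39 with another Leiden seed. In the liver it was 0.94 at 0.6 and 0.68 (0.19 to 1.18) with that other seed. At a resolution of 1.5 the liver ratio was 0.68 with an interval that reached −0.03, no longer a called difference.

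Naive-like Cxcr5 in the spleen was 21.7 (19.5 to 24.1) CPM in EomesTG and 12.6 (10.6 to 14.8) CPM in WT cells, a called ratio of 0.79 (0.51 to 1.07). For Cxcr4 the values were 12.7 (11.1 to 14.5) and 10.9 (9.07 to 12.9) CPM, with a ratio of 0.22 (−0.10 to 0.55). In the naive-like liver cells Cxcr4 had 13 UMIs in EomesTG and 18 in WT, and Cxcr5 17 and 7, too few to be counted.

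The T cells outside the naive-like clusters differed less in Cxcr3. In the spleen it stood at 149 (142 to 156) CPM in 2292 EomesTG and 127 (121 to 132) CPM in 3058 WT cells, a ratio of 0.23 (0.14 to 0.33). Cxcr5 stood at 24.6 (21.8 to 27.6) and 15.3 (13.5 to 17.3) CPM and Cxcr4 at 12.2 (10.3 to 14.5) and 8.02 (6.73 to 9.48) CPM in the same cells. Their ratios, 0.69 (0.44 to 0.93) and 0.61 (0.26 to 0.96), were called, where 2.63% of genes were called higher and 2.97% lower. With another Leiden seed the Cxcr4 ratio was 0.55, just under 1.5-fold. In the liver the ratios outside the naive-like clusters were −0.40 (−0.48 to −0.32) for Cxcr3, −0.62 (−0.82 to −0.42) for Cxcr4, which was called, and −0.20 (−0.54 to 0.14) for Cxcr5, where 14.2% of genes were called higher and 7.0% lower and the median gene stood at 0.13. Effector-like liver cells, 132 in EomesTG and 472 in WT, had Cxcr3 at 219 (184 to 259) and 176 (159 to 195) CPM, a ratio of 0.31 (0.02 to 0.60) under 1.5-fold. None of the receptors was called there, where 2.79% of genes were called higher and 2.49% lower.

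**Figure D2:**
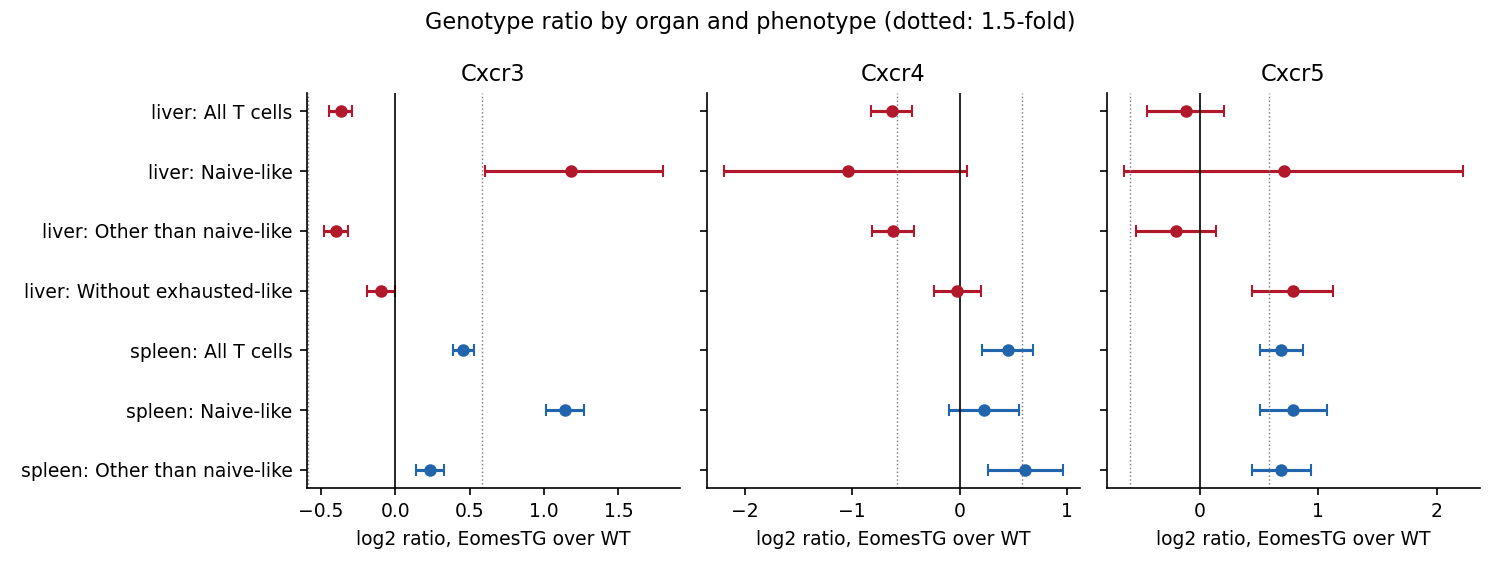
Log2 ratio of EomesTG over WT CPM for each receptor, in all T cells of an organ and in groups of them. Points are ratios, bars exact 95% conditional binomial intervals, red is liver and blue spleen, the solid line is equality and dotted lines mark 1.5-fold. The spleen ratios lay above 0 for all 3 receptors, and without the exhausted-like clusters the liver ratios of Cxcr3 and Cxcr4 were −0.095 and −0.020.

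Within a cluster, EomesTG and WT cells of the same organ were set side by side where each had at least 50 cells. All clusters of an organ come from the same libraries, so they are not replicates of each other. In the spleen Cxcr5 was higher in EomesTG in 10 of 10 clusters, with the interval above equality in 5, and it was called higher in 5 of the 6 clusters with enough UMIs. Over all pairs of gene and cluster with enough UMIs, 3.2% were called higher and 2.65% lower. Spleen Cxcr3 was higher in EomesTG in 9 of 10 clusters, with the interval above equality in 7, and was called higher in 6 and lower in 0. The exception was the NK receptor-bearing-like cluster 12, at 120.1 against 124 CPM. Spleen Cxcr4 was higher in 7 of 10 clusters, with the interval above equality in 1, and was called in 0 of 4.

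In the liver, 6 clusters had at least 50 cells of each genotype, and over all pairs of gene and cluster 4.65% were called higher and 3.35% lower. Cxcr3 was higher in EomesTG in 3 of the 6 and called in 1, the cycling-like cluster 15, where it was lower at 89.6 (77.4 to 103) CPM in EomesTG against 193 (177 to 209) CPM in WT (log2 ratio −1.10, −1.35 to −0.87), where 5.94% of genes were called lower. The same cluster in the spleen stood the other way, at 159 CPM in EomesTG and 72.4 CPM in WT, a called ratio of 1.13 (0.765 to 1.497), where 4.44% of genes were called higher. Liver Cxcr5 was higher in EomesTG in 4 of 6 clusters, among them cluster 2 on 3 against 0 UMIs. Cluster 16, also among the 6, had 0 UMIs on both sides. Cxcr5 was called in the 1 with enough UMIs, cluster 8, at 19.5 (15.1 to 24.8) CPM in EomesTG against 11.4 (9.22 to 14.0) CPM in WT, where 2.67% of genes were called higher. Liver Cxcr4 was called in 0 of 3 clusters, and in cluster 8 it stood at 41.4 (34.8 to 48.9) CPM in EomesTG and 37.4 (33.3 to 41.9) CPM in WT.

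**Figure D3:**
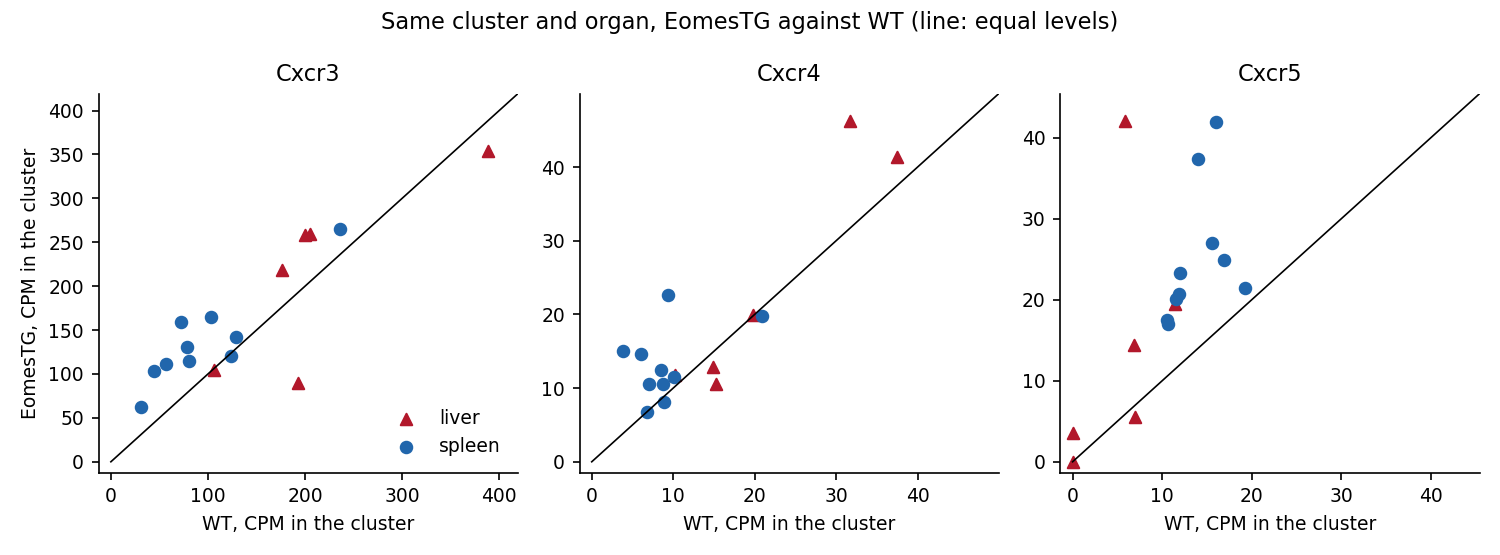
Level of each receptor in EomesTG cells (y axis) against WT cells (x axis) of the same cluster and organ, in CPM. Each point is a cluster with at least 50 cells of both genotypes, triangles are liver and circles spleen, and the line marks equal levels. For Cxcr5 all 10 spleen points lie above the line, and the liver point far below it for Cxcr3 is the cycling-like cluster, at 89.6 against 193 CPM.

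Exhausted-like cells, named from Pdcd1, Lag3, Havcr2, Tox, Tigit and other listed genes, made up 2984 of the 4517 EomesTG liver cells, which were over 80% of each such cluster. All 3 receptors were lower in them than in the other EomesTG liver T cells, which numbered 1533. Cxcr5 stood at 2.37 (1.56 to 3.45) CPM in exhausted-like and 14.6 (12.2 to 17.3) CPM in other cells, a log2 ratio of −2.62 (−3.28 to −2.02). Cxcr4 stood at 10.3 (8.49 to 12.3) and 27.5 (24.2 to 31.1) CPM, with a ratio of −1.42 (−1.75 to −1.10). Both were called, where 20.3% of genes were called higher and 10.3% lower and the median gene stood at 0.20. Cxcr3 stood at 102 (96.0 to 108) and 146 (139 to 154) CPM, with a ratio of −0.52 (−0.64 to −0.41), under 1.5-fold.

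The 3 exhausted-like clusters were not alike for the receptors. In EomesTG liver cells Cxcr3 stood at 103 (95.8 to 110.3) CPM in cluster 5, with 2200 cells, 152 (136 to 169) CPM in cluster 6, with 551 cells, and 28.1 (20.4 to 37.8) CPM in cluster 7, with 233 cells. Cluster 6 also held most of their Cxcr5, at 7.97 (4.64 to 12.8) CPM against 1.30 (0.623 to 2.39) CPM in cluster 5. Cluster 7, led by Slc16a11 and TCR segments of the Trav9 family, had 0 UMIs of Cxcr5 and a median depth of 5600 UMIs per cell, above the 3320 of cluster 5 and 3646 of cluster 6.

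Leaving these clusters out of every library took the genotypes of the liver to near equal levels for 2 receptors. The step kept 1533 of 4517 EomesTG but 3102 of 3127 WT liver cells. Since the EomesTG cells left out were lower for each receptor, the EomesTG levels had to rise. Cxcr3 then stood at 146 (139 to 154) CPM in EomesTG and 156 (151 to 162) CPM in WT liver, with a log2 ratio of −0.095 (−0.19 to −0.00090), and Cxcr4 at 27.5 (24.2 to 31.1) and 27.9 (25.5 to 30.4) CPM, with a ratio of −0.020 (−0.24 to 0.20). Cxcr5 stood at 14.6 (12.2 to 17.3) and 8.45 (7.18 to 9.86) CPM, and its ratio of 0.79 (0.44 to 1.13) was called, where 5.32% of genes were called higher and 2.52% lower. In EomesTG the ratio of liver over spleen was then 0.12 for Cxcr3, 1.14 for Cxcr4 and −0.65 for Cxcr5, so that of Cxcr3 changed its direction and that of Cxcr4 passed 1.5-fold.

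A gate on Pdcd1 alone does not use the clusters, but Pdcd1 is in the list that named the exhausted-like ones. The gate is thus no independent check of them. It gave the same order in EomesTG liver. Among thinned cells there Cxcr5 was found in 0.408% (0.176 to 0.801) of the 1963 with a Pdcd1 UMI and in 2.18% (1.59 to 2.93) of the 1968 without. Cxcr4 was found in 1.73% (1.202 to 2.412) and 4.22% (3.37 to 5.20) of them, and Cxcr3 in 18.6% (16.9 to 20.4) and 23.5% (21.7 to 25.5). Median depths before thinning were 3873 and 4784 UMIs. Cells with both a Pdcd1 and a Tcf7 UMI, the pair that marks progenitor exhausted cells, numbered 37, and 1 of them had a Cxcr5 UMI, against 7 of 1926 with Pdcd1 and no Tcf7. The other libraries had few cells with a Pdcd1 UMI, so their intervals were wide. The order there was not the same for every receptor and library. In 110 WT liver cells with a Pdcd1 UMI and 2823 without, Cxcr3 was found in 27.3% (19.2 to 36.6) and 24.7% (23.1 to 26.3), Cxcr4 in 5.45% and 5.53% and Cxcr5 in 1.82% (0.221 to 6.41) and 1.74%. In EomesTG spleen, with 78 cells having a Pdcd1 UMI and 5275 without, the shares were 25.6% and 22.4% for Cxcr3, 7.69% (2.88 to 16.0) and 2.71% (2.29 to 3.19) for Cxcr4 and 3.85% and 4.21% for Cxcr5. In WT spleen, with 57 and 5022 cells, they were 22.8% and 16.9%, 1.75% and 1.71%, and 3.51% and 2.71%.

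Clones were then compared by size, a clone being the cells of a library with 1 deposited clonotype, and expanded meaning 2 or more cells. In EomesTG liver 3961 T cells had a clonotype and formed 1412 clones, of which the largest held 492 cells. WT liver had 2896 such cells in 2483 clones, the largest of 114 cells. The spleens had 5288 clones in EomesTG and 4951 in WT, the largest of 9 and 39 cells. In EomesTG liver 2442 of the 2742 cells of expanded clones were exhausted-like, against 136 of the 1219 cells of single-cell clones. Clone size there thus went along with phenotype, and their separate parts were not tested. Cxcr3 went opposite ways with expansion in the livers. In EomesTG liver it stood at 105 (99.5 to 111) CPM in expanded and 154 (145 to 164) CPM in single-cell clones, a log2 ratio of −0.55 (−0.67 to −0.43), under 1.5-fold. In WT liver it stood at 271 (252 to 291) CPM in expanded and 136 (130.1 to 142) CPM in single-cell clones, a called ratio of 0.995 (0.87 to 1.11). Genes called higher made up 28.8% and genes called lower 8.6% in EomesTG liver, with the median gene at 0.34, and 18.6% and 6.71% in WT liver, with the median gene at 0.24.

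In the spleens Cxcr3 was higher in expanded clones as well. It stood at 195 (158 to 238) CPM in expanded and 134 (130 to 138) CPM in single-cell clones of EomesTG spleen, and at 224 (190.0 to 262) and 94.6 (90.9 to 98.3) CPM in WT spleen. The ratios were 0.54 (0.24 to 0.84) and 1.24 (1.0001 to 1.478), and the second was called. The spleens held 157 and 174 expanded cells, and 9.53% and 12.3% of genes were called higher, 1.73% and 3.13% lower, with median genes at 0.14 and 0.17. With expanded taken as 5 or more cells, the EomesTG liver ratio was −0.69 and the EomesTG spleen ratio 0.82, both past 1.5-fold.

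Cxcr4 and Cxcr5 were lower in the expanded clones of both livers. In EomesTG liver Cxcr5 stood at 2.13 (1.38 to 3.14) CPM in expanded and 17.0 (14.0 to 20.3) CPM in single-cell clones, a called ratio of −2.99 (−3.68 to −2.36), and Cxcr4 at 10.5 (8.70 to 12.5) and 30.8 (26.8 to 35.3) CPM, a called ratio of −1.56 (−1.89 to −1.23). In WT liver Cxcr4 stood at 15.6 (11.4 to 20.9) and 29.9 (27.2 to 32.8) CPM, a called ratio of −0.94 (−1.42 to −0.50). WT liver Cxcr5, on 12 and 138 UMIs, had a called ratio of −1.14 (−2.13 to −0.29), but without the largest clone it was −0.58 (−1.57 to 0.27) and not called. In EomesTG spleen neither receptor was called, on 4 Cxcr4 and 14 Cxcr5 UMIs of expanded clones. In WT spleen each had 2 UMIs in expanded clones, and the called Cxcr5 ratio of −2.36 (−5.41 to −0.49) became −1.77 (−4.82 to 0.089), not called, without the largest clone.

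By size class in EomesTG liver, Cxcr3 stood at 154 (145 to 164) CPM in clones of 1 cell, 184 (161 to 209.6) in clones of 2 to 4 cells, 132 (117 to 148) in clones of 5 to 19, 79.0 (69.2 to 89.8) in clones of 20 to 99 and 90.8 (83.0 to 99.2) in clones of 100 or more cells. The level was highest in the small clones and lowest in those of 20 cells or more. Cxcr5 stood at 17.0 CPM in clones of 1 cell and at 1.41 to 3.16 CPM in the 4 larger classes, and Cxcr4 at 30.8 CPM against 7.73 to 15.03 CPM. In WT liver Cxcr3 stood at 136 CPM in clones of 1 cell, 306 (271 to 343) in clones of 2 to 4, 259 (224 to 297) in clones of 5 to 19 cells and 260.0 (228 to 295) in the clone of 114 cells. Within the exhausted-like cells of EomesTG liver, Cxcr3 stood at 98.6 (92.4 to 105) CPM in 2442 cells of expanded and 175 (142 to 214) CPM in 136 cells of single-cell clones, and Cxcr5 at 1.58 (0.883 to 2.60) and 11.1 (4.06 to 24.1) CPM, the last on 6 UMIs. Cxcr4 stood at 9.57 (7.71 to 11.7) CPM in these expanded and 12.9 (5.19 to 26.6) CPM in these single-cell clones, with overlapping intervals, where the ratio over all EomesTG liver cells was −1.56.

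**Figure D4:**
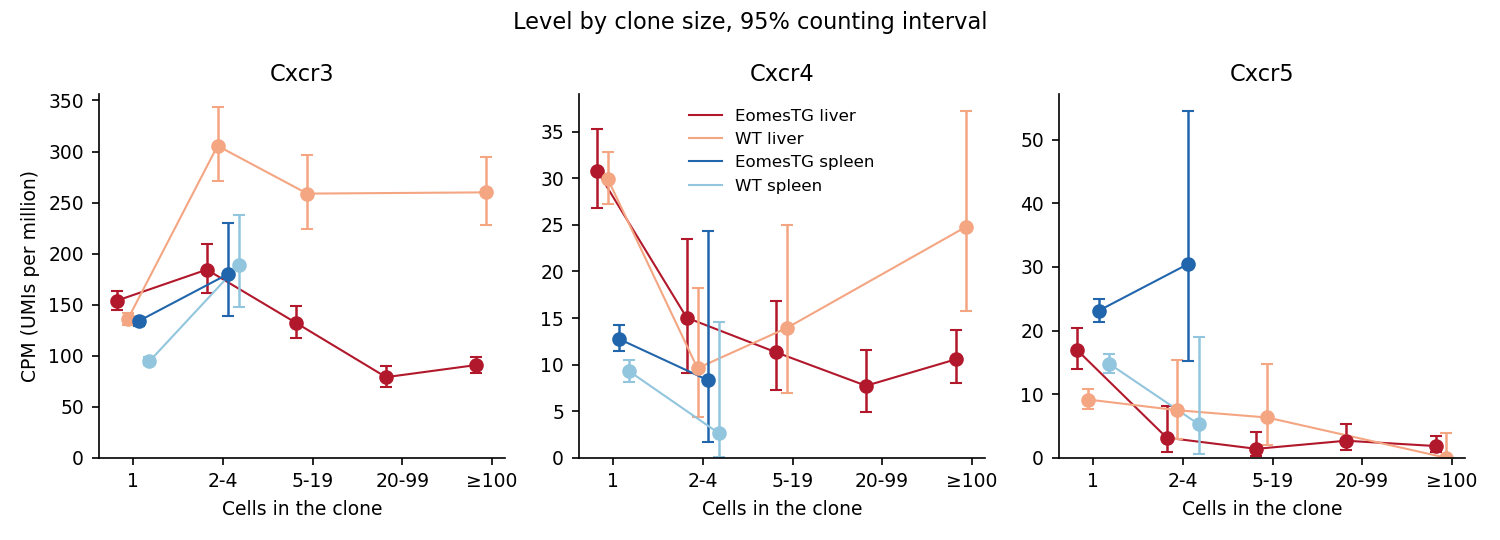
Level of each receptor by the number of cells in the clone, for the 4 libraries. The y axes give CPM and start at 0, bars are exact 95% Poisson intervals, lines join the classes of a library, and classes with under 50 cells are not drawn. Cxcr3 in EomesTG liver was 184 CPM in clones of 2 to 4 cells and 79.0 CPM in clones of 20 to 99, whereas in WT liver it was 259 CPM or more in every class drawn above 1 cell.

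Single clones differed widely in Cxcr3. EomesTG liver held 10 clones of 50 or more cells, 1565 cells in all, and 80% to 97.6% of each was exhausted-like. Their Cxcr3 ranged from 7.78 (0.942 to 28.1) to 138 (112 to 167) CPM with a median of 67.1 CPM. The largest, of 492 cells, stood at 90.4 (78.4 to 104) CPM and the next, of 430 cells, at 66.4 (55.3 to 79.0) CPM. In these 10 clones Pdcd1 ranged from 551 to 1015 CPM and Eomes from 146 to 266 CPM. The WT liver clone of 114 cells, 45.6% effector-like, had Cxcr3 at 260.0 CPM, above all 10, with Pdcd1 at 39.9 CPM. Cxcr4 ranged from 3.89 to 35.9 CPM in the 10 clones, and Cxcr5 from 0 to 6.15 CPM with 0 UMIs in 4. The highest Cxcr4 level (16.4 to 68.1) rested on 9 UMIs in 3.53% of the cells of a clone of 85, and the next was 15.4 CPM. The WT clone had Cxcr4 at 24.8 CPM and 0 Cxcr5 UMIs.

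**Figure D5:**
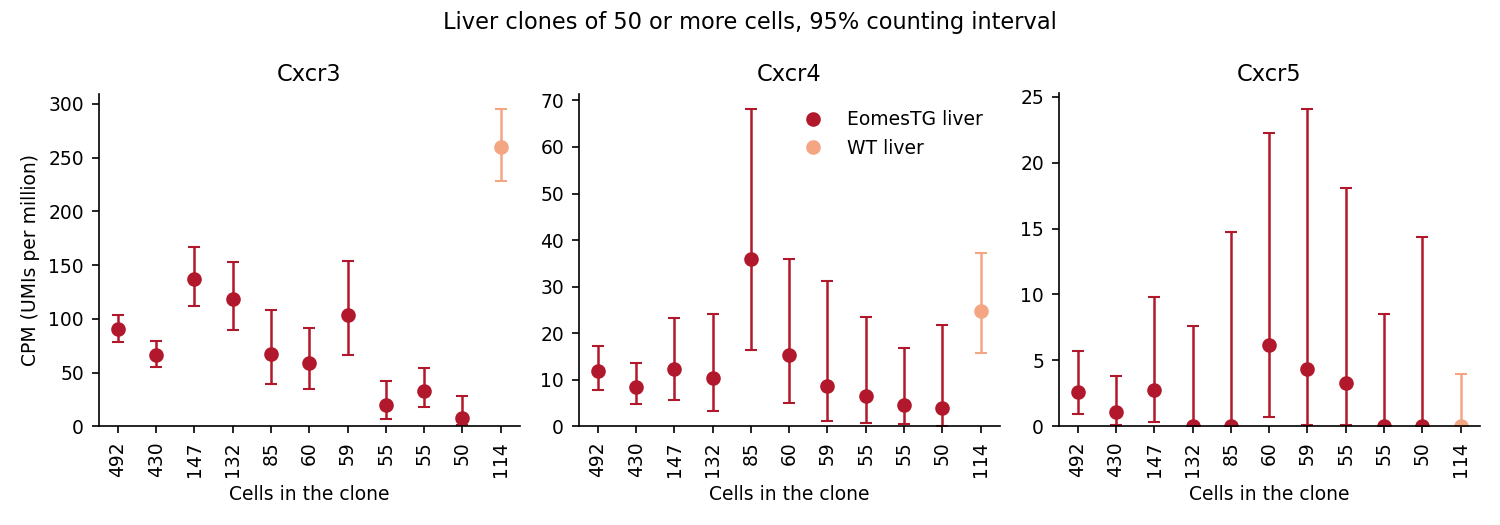
Level of each receptor in every liver clone of 50 or more cells. The x axes name the clones by their number of cells, the y axes give CPM and start at 0, bars are exact 95% Poisson intervals, and EomesTG liver clones stand left of the WT liver clone. For Cxcr3 the 10 EomesTG clones span 7.78 to 138 CPM and the WT clone stands at 260.0 CPM.

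Clones found in both organs, matched by their TRB and TRA sequences rather than the deposited clonotype, were compared between liver and spleen. UMIs were summed over these clones in each organ without pairing by clone, so the mix of clones can differ between the sides. In EomesTG mice 30 clones were shared, with 401 liver and 67 spleen cells, and Cxcr3 stood at 155 (137 to 175) CPM in their liver and 259 (201 to 327) CPM in their spleen cells. The log2 ratio of −0.74 (−1.12 to −0.33) was called, where 6.58% of genes were called higher and 6.38% lower. In WT mice 59 clones were shared, with 282 liver and 127 spleen cells, and Cxcr3 stood at 254 (232 to 278) and 239 (203 to 281) CPM, a ratio of 0.08 (−0.18 to 0.36), where 7.67% of genes were called higher and 2.93% lower. Cxcr4 and Cxcr5 had too few UMIs in these cells. In each genotype 1 clone gave a large part of the liver cells, 36.7% in EomesTG and 40.4% in WT.

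Of the listed CXC ligands, 6 of 7 were in the matrices, and the T cells held few UMIs of most. Cxcl9 had 0 UMIs, and Cxcl12, Cxcl13 and Pf4 had at most 3 in any library. Cxcl10, the ligand of Cxcr3, stood at 16.6 CPM in EomesTG liver, 33.3 in WT liver, 2.09 in EomesTG spleen and 1.81 in WT spleen. It was called lower in EomesTG liver (log2 ratio −1.002, −1.196 to −0.809) and higher in liver in both genotypes. Mif, a cytokine that can act through Cxcr4 and Cd74, stood at 407, 547, 506 and 543 CPM in that order and was not called.

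The other chemokine receptors, 19 genes of which 7 or 8 had enough UMIs, were called lower in EomesTG spleen for 4 of 8 and higher for 0, with a median log2 ratio of −0.59 against −0.007 over all genes, of which 2.68% were called higher and 4.93% lower. The lowest were Ccr10, Cxcr6, the receptor of Cxcl16, and Cx3cr1, the receptor of fractalkine. Cxcr6 stood at 9.44 CPM in EomesTG and 50.7 CPM in WT spleen. Ccr7, which leads naive cells to lymph nodes, stood the other way at 322 CPM in EomesTG and 236 CPM in WT spleen, a log2 ratio of 0.45 (0.40 to 0.49) that was not called. In EomesTG liver 3 of 8 were called higher, Ccrl2 and Cxcr6 among them, and 4 lower, led by Ccr2, Ccr9 and Ccr7, with a median of −0.48, beside 13.7% and 6.7% of all genes. Liver over spleen, 5 of 7 were called higher and 2 lower in EomesTG (median 2.04), and 5 of 8 higher and 1 lower in WT (median 1.58), with Ccrl2 among the higher in both. Of all genes 23.6% were called higher and 9.69% lower in EomesTG, and 11.4% and 3.38% in WT.

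Of the 26 genes of receptor signalling and desensitisation with enough UMIs, 2 were called higher in EomesTG spleen and 0 lower, with a median of −0.05, beside 2.68% and 4.93% of all genes. These were Cd74, at 41.6 CPM in EomesTG and 3.999 CPM in WT spleen, and Rgs2. In EomesTG liver 7 were called higher and 2 lower (median 0.12), beside 13.7% and 6.7% of all genes. The regulators of G protein signalling Rgs16, Rgs1 and Rgs3 led the higher, Rgs16 at 261 CPM in EomesTG and 37.2 CPM in WT liver, while Rgs10 and Dpp4, the protease that trims Cxcr3 ligands, were the lower. Liver over spleen, 10 were called higher and 4 lower in EomesTG (median 0.28) and 5 higher and 1 lower in WT (median 0.19), with Rgs1, Rgs2 and Rgs16 leading in both. The shares over all genes were 23.6% and 9.69% in EomesTG and 11.4% and 3.38% in WT.

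Of the 16 transcription factors with known links to these receptors, Tsc22d3 and Eomes were called higher and Tbx21 lower in EomesTG spleen, with a median of 0.003, beside 2.68% and 4.93% of all genes. Tbx21, whose link to Cxcr3 is named above, stood at 22.3 CPM in EomesTG and 38.9 CPM in WT spleen. Its part in the Cxcr3 levels was not tested. In the livers Tbx21 stood at 72.4 and 72.2 CPM. In EomesTG liver 6 were called higher, led by Tox, Prdm1 and Maf, and 4 lower, led by Lef1, Tcf7 and Klf2, a factor of T cell recirculation, with a median of 0.002, beside 13.7% and 6.7% of all genes. Liver over spleen, 8 were called higher and 5 lower in EomesTG (median 0.53) and 6 higher and 1 lower in WT (median 0.48), beside 23.6% and 9.69% of all genes in EomesTG and 11.4% and 3.38% in WT. Bcl6, a factor linked to Cxcr5 in follicular helper T cells, stood at 1.80, 2.64, 2.83 and 3.23 CPM in EomesTG liver, WT liver, EomesTG spleen and WT spleen. Of the 15 immediate early and stress genes, 10 of 14 were called higher in EomesTG spleen and 4 of 15 in EomesTG liver, where 2 were lower, and 12 of 15 and 15 of 15 were called higher in liver than in spleen of EomesTG and WT. The shares of all genes called higher were 2.68%, 13.7%, 23.6% and 11.4% in these comparisons. The median log2 ratios of that list were 0.997, −0.030, 2.08 and 3.18 in the same order.

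Cells with UMIs of more than 1 receptor were rare after thinning. In EomesTG liver 23 cells had both Cxcr3 and Cxcr4, in WT liver 33, in EomesTG spleen 27 and in WT spleen 20, where the product of the shares gives 24.6, 40.2, 33.5 and 14.8 cells. Cxcr3 with Cxcr5 was found in 8, 11, 46 and 25 cells, against products of 10.7, 12.6, 50.6 and 23.4. Cxcr4 with Cxcr5 was found in 4, 6, 14 and 2 cells, against 1.52, 2.82, 6.26 and 2.36. The counts of Cxcr3 pairs lay near the products. Those of Cxcr4 with Cxcr5, which are low, lay above the products except in WT spleen. In EomesTG spleen Cxcr5 was found in 9.40% of cells with and 4.05% of cells without a Cxcr4 UMI, and the difference was not tested.

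Likeness was measured as Pearson's correlation of log2(CPM + 1) over 40 pairs of cluster and library with at least 50 cells, among 9029 genes, as a description: the points share libraries, depth and cells. The genes most like Cxcr3 were Skap1, an adaptor of T cell adhesion, at 0.75, then Dopey2, Tmub1, Nod1 and Sntb2, down to 0.72. Those most like Cxcr4 were Tgif1 at 0.73, Socs3, a feedback inhibitor of cytokine signalling, Ptbp2, the clock gene Per1 and Kdm6b, down to 0.67. Those most like Cxcr5 were Nsg2 at 0.82, Lcn4, Tmem50b, Naca and the translation factor gene Eef1b2, down to 0.79. Over the same points the correlation with Eomes was −0.22 for Cxcr3, 0.19 for Cxcr4 and 0.36 for Cxcr5, and with Tbx21 0.46, −0.14 and −0.51.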

How the data were processed

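UMIs per gene and cell barcode were deposited by the authors as raw counts without normalization, and TCR contigs as tables with counts of reads and UMIs per contig. Cell Ranger and mm10 were used per the submitters' processing notes, and the matrices carry software version 3.1.0 and format version 2, per the file headers. The filter asked for 500 UMIs, 300 genes and less than 10% of UMIs from mitochondrial genes, and it removed 66, 177, 48 and 80 of the 4587, 3327, 5774 and 5415 deposited for EomesTG liver, WT liver, EomesTG spleen and WT spleen. No doublet caller was used, since one tried marked too few cells to work. Of the barcodes, 0 had over 2 productive chains for either TCR locus, and cells with 2 TRB chains (3.90, 6.81, 6.16 and 6.34%) were kept, with an alternative without them.

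Counts scaled to 10000 per cell, 2000 variable genes (without the members, Eomes, antigen receptor, mitochondrial, ribosomal protein and sex-linked genes), 30 principal components and 15 neighbours gave 19 Leiden clusters at resolution 1.0. A cluster was named when the median log2 difference of its best marker list was at least 0.5 with 3 or more markers higher, unless another list had more markers among the 10 leading genes, which left clusters 0, 2 and 18 unnamed. A rule set after the clusters were seen called a cluster non-T when the CD8 T cell markers were also lower; it left out 1 cluster of 29 cells and kept unnamed one of 708 cells with few UMIs, led by Fabp1 and Alb. Earlier partitions of the same cells, made with slightly different code, were replaced by this one. The members and all lists were chosen with earlier results of these data known. Genes named outside the members were the 5 most like each and up to 3 of a list each way, with Cxcl10, Mif, Bcl6, Tbx21 and Bcl9l named for their known link or overlap. Values of some listed genes, and 1 alternative definition of naive cells added after the data were seen, are not reported here. With 1 library per group no p-value was computed. A level of 0 is limited at 3 counts. Ratios and their intervals were also run on simulated Poisson counts, which held no spread between cells, clones, mice or libraries. That run thus checks the calculation under counting error alone and says nothing of replicate spread. Clusters came from scanpy 1.11.5 with igraph 0.11.9, scikit-learn 1.9.0 and anndata 0.12.19, intervals from scipy 1.17.1, tables from pandas 2.3.3 and numpy 2.4.6, and figures from matplotlib 3.10.9, all under Python 3.11.15.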

Additional observations from a re-analysis of the deposited data

Results flagged for a closer look

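The Cxcr3 difference between EomesTG and WT stood on opposite sides of equality in the 2 organs, with log2 ratios of 0.46 in spleen and −0.37 in liver. The difference was not tested, since each genotype and organ is 1 library. The Cxcr4 ratio did so as well, at 0.45 in spleen and −0.63 in liver, and again the difference was not tested. Without the exhausted-like clusters the liver ratios were −0.095 for Cxcr3 and −0.020 for Cxcr4.

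Cxcr3 in liver over spleen was −0.15 in EomesTG and 0.67 in WT, opposite directions in the 2 genotypes. The difference was not tested. After thinning, the EomesTG ratio was −0.096 (−0.214 to 0.022), which did not leave equality. In expanded over single-cell clones Cxcr3 was −0.55 in EomesTG liver and 0.995 in WT liver, where the difference was not tested either.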

How the results depend on the processing

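Among values computed under other settings, 148 moved by less than the counting interval or 1.5 times and 35 moved more. No called value changed sign. Of those not called, the Cxcr3 and Cxcr5 ratios of EomesTG over WT liver and the Cxcr3 ratio of EomesTG liver over spleen did under settings given next, and the Cxcr5 ratio of expanded over single-cell clones in EomesTG spleen went to −0.013 with 5 or more cells. For the liver ratio of EomesTG over WT, each clone counted once gave 0.14 for Cxcr3, −0.16 for Cxcr4 and 0.67 for Cxcr5, and leaving out the clusters with over 80% EomesTG liver cells gave −0.095, −0.020 and 0.79. For EomesTG liver over spleen the same settings gave 0.28, 1.04 and −0.81, and 0.12, 1.14 and −0.65. Median-of-ratios scaling gave −0.48 and −0.33 for Cxcr3 in these 2 comparisons. Thinned cells gave 0.38 for Cxcr3 and 0.71 for Cxcr4 in EomesTG over WT spleen, −0.88 for Cxcr4 in EomesTG over WT liver, and 0.21 for Cxcr4 in EomesTG liver over spleen. Without the immediate early-like cluster, a setting added after the data were seen, Cxcr3 was −0.63 in EomesTG over WT liver, Cxcr4 0.11 and Cxcr5 −2.04 in EomesTG liver over spleen, and the WT ratios of liver over spleen were 0.98, 1.17 and −1.19. Among naive-like spleen cells Cxcr3 was 1.44 at resolution 0.6 and 1.39 with another Leiden seed, the second added after the data were seen. Among other spleen cells it was 0.37 at resolution 0.6. In expanded over single-cell clones Cxcr3 was −0.41 by TRB alone and −0.69 with 5 or more cells in EomesTG liver, 1.12 by TRB alone in WT liver, and 0.96 by TRB alone and 1.495 with 5 or more cells in WT spleen. With at least 200 UMIs per gene, 1.77% of genes were called higher and 2.91% lower in EomesTG over WT spleen, and 2.15% lower in WT liver over spleen. The cause of these moves was not tested. Where 5 or more cells defined expanded clones of WT spleen, 1 receptor with 0 UMIs gave no value.

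The clusters depend on small choices: naive-like cells numbered 5947 at resolution 1.0, 5184 at 0.6, 3628 at 1.5 and 5399 with another seed. No paired analysis was possible because each genotype and organ is 1 library and the labels number no replicates. Depth limits Cxcr4 and Cxcr5 most, since 160 Cxcr5 UMIs in a liver library leave few for any cluster or clone.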
